A study of Mus musculus with 3 samples.

Results

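Transcripts of 9 genes were followed in cultures of mouse CD8+ T cells: 5 that identify B cells (Cd79a, Cd79b, Ms4a1, Cd22 and Pax5) and 4 that build the major histocompatibility complex (MHC) class II antigen-presenting machinery (H2-Aa, H2-Ab1, H2-Eb1 and Cd74). They were taken by name, as a gauge of other cells carried over in the CD8 isolate, from a table of 17121 genes, which held all 9. CD8+ T cells, which kill infected or altered cells, had been isolated from spleen and lymph node of wild-type mice and were studied on day 3 of culture. The aged TRM culture, from mice 18 months old, held anti-CD3 and anti-CD28 antibody (1 µg/ml), which stimulate the T cell receptor (TCR) and its co-receptor, together with the cytokines IL-15 (20 ng/ml) and TGF-beta (5 ng/ml), a mixture named for tissue-resident memory T cells (TRM). The young TRM culture was treated identically and came from mice 6 weeks old. The young TCR culture, also from mice 6 weeks old, held the antibodies without either cytokine. Receptor stimulation was thus common to all 3 samples. The labels give neither the mouse strain, nor the number of mice behind a sample, nor the way CD8+ T cells were isolated.

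B cells display an antibody on their surface, and its signal passes through a pair of chains, CD79A and CD79B, which the genes Cd79a and Cd79b encode. MHC class II molecules are pairs of an alpha and a beta chain that present peptides to CD4+ T cells. They are carried by B cells, dendritic cells and macrophages, while mouse T cells make little of them. The invariant chain, encoded by Cd74, guides class II molecules through the cell, and DM proteins help to load them with peptide. Interferon gamma can induce class II genes in many cell types through the coactivator CIITA.

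The promoters of class II genes share short elements, the X and Y boxes, to which the RFX complex and the factor NF-Y bind. They are shown as background, and their part in the levels that follow was not tested. RefSeq windows on GRCm38.p6, from 250 bases before to 50 bases after an annotated start, were at hand for 5 of the 9 members. The windows of H2-Aa (chr17:34287774-34288073, minus strand) and H2-Eb1 (chr17:34305617-34305916, plus strand) read, 5′ to 3′, with the matches to GCAACT (core of the X box), TGACGTCA (X2 box) and CTGATTGG (Y box) in capitals:
H2-Aa: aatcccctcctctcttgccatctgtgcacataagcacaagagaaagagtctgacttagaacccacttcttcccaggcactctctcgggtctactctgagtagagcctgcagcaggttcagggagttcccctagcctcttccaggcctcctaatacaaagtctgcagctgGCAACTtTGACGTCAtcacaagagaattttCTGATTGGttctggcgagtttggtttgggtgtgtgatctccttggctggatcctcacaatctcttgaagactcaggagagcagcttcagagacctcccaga
H2-Eb1: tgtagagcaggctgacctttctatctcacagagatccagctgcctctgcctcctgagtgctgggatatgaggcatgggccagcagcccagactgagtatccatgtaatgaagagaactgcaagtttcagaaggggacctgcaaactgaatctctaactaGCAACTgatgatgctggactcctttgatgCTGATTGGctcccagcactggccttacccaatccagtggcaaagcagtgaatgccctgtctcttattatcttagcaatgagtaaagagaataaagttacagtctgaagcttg
The Y box began 51 bases before the start in H2-Aa and 62 bases before it in H2-Eb1, with GCAACT upstream of it at 81 and 91 bases. H2-Aa also held TGACGTCA at 74 bases. Searched on both strands, CTGATTGG was found in 4.10% of 32851 windows of this length, GCAACT in 10.9% and TGACGTCA in 1.79%. TGACGTCA lay between the other motifs of H2-Aa without overlapping them, and the letters GCAACT were chosen after these windows had been read. Among the B cell members, the window of Cd22 (chr7:30878979-30879278, minus strand) held CCCNNGGG, the core of the motif bound by the B lineage factor EBF1, beginning 48 bases before the start and shown in capitals:
Cd22: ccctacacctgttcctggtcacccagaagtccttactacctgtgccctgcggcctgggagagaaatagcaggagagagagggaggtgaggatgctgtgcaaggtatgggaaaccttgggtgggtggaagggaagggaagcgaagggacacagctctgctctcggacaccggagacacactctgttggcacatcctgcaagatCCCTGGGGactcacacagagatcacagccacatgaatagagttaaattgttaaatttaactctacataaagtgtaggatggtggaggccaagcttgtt
That core occurred in 13.7% of the windows, so a match is common. The Cd22 gene, on the minus strand, is annotated from 30865404 to 30880342. Its window therefore lies inside the gene, at a start short of the gene's upstream end. The octamer ATGCAAAT was not found in the windows of the members searched (Cd22, Cd79a, Pax5, H2-Aa and H2-Eb1) and was present in 1.74% of all windows. These matches describe letters only.

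The gene table assigned 40385477 reads to aged TRM, 36021887 to young TRM and 39915663 to young TCR. For each sample the table has 2 numbered columns, and the labels do not explain the numbers. Both were summed and taken as repeat measurements of 1 sample. With 1 sample per group, no difference was tested against the spread between mice or cultures, and no p-value was computed. Levels are in CPM, the reads of a gene per 1000000 reads after trimmed-mean (TMM) scaling. Intervals are at 95% and reflect counting error alone. "Rose" and "fell" are used of a gene only if log2(CPM + 1) changed by 1 or more and the interval of the CPM ratio did not include 1. The added 1 is a pseudocount, which log2 ratios contain and printed folds lack. Genes of T cell identity were read first. The 13 of them, Cd8a and Cd8b1 included, summed to 5654 CPM in aged TRM, 5962 CPM in young TRM and 4515 CPM in young TCR. Cd8a alone had 1632, 1822 and 747 CPM, in the same order. The 9 members together held 6152, 3219 and 7308 reads in aged TRM, young TRM and young TCR, which is 152, 89.4 and 183 of every 1000000 reads.

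Compared per length in the authors' TPM, the order of the members was nearly the same in every library. Cd74 was highest, at 107 TPM in aged TRM, 61.1 TPM in young TRM and 101 TPM in young TCR, which placed it at rank 1673, 2859 and 1701 among all genes. H2-Ab1 followed with 63.3, 39.0 and 77.4 TPM, and Pax5, the transcription factor that fixes B cell identity, was lowest with 0.41, 0.05 and 0.99 TPM, each in the order aged TRM, young TRM and young TCR. Between these, H2-Aa lay above Cd79b in aged TRM (31.4 and 19.8 TPM) and in young TCR (33.6 and 25.5 TPM), whereas Cd79b was above H2-Aa in young TRM (20.9 and 14.7 TPM). The class II members and Cd79b thus made up the upper part of the set, and Cd79a, Ms4a1, Cd22 and Pax5 the lower part.

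**Figure D1:**
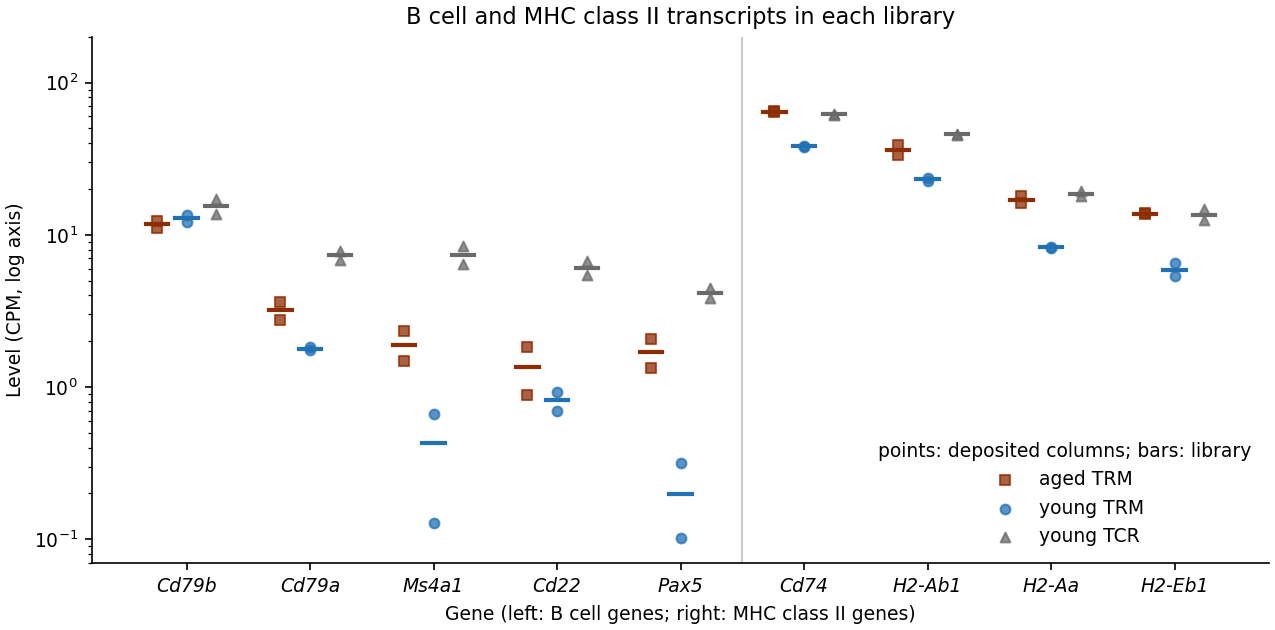
Level in CPM (log axis) of the 9 genes in aged TRM (squares), young TRM (circles) and young TCR (triangles). Points are the 2 deposited columns of a library and bars the library as a whole. Young TRM is lowest for every gene but Cd79b, which lies between 11.7 and 15.5 CPM in all 3 libraries.

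The first comparison asked what the added IL-15 and TGF-beta did to the members in young cells. All 9 had less CPM in young TRM than in young TCR. Of these, 6 fell past the threshold: Cd79a, Ms4a1, Cd22, Pax5, H2-Aa and H2-Eb1. Of all 11588 genes tested, 3.6% fell and 4.18% rose. In all 9 the columns of young TRM lay below those of young TCR without overlap, as they did in 37.5% of all genes tested. The members had a median log2 ratio of -1.09, against 0.02 over all genes tested. Every member reached the 1 CPM needed for testing, but Ms4a1, Cd22 and Pax5 did so through the young TCR library alone, so their place among the tested genes is tied to that library. With a pseudocount of 5, which shrinks ratios of weakly expressed genes, 1 member (Ms4a1) was still past 2-fold.

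The B cell receptor chains parted. Cd79a had 1.84 and 1.74 CPM in the columns of young TRM, against 6.83 and 7.87 CPM in young TCR. The columns did not overlap, and Cd79a fell 4.11-fold (interval 3.12 to 5.48). Cd79b had 12.1 and 13.5 CPM in young TRM and 13.8 and 17.2 CPM in young TCR. Its columns nearly met and it was 1.20-fold lower (1.07 to 1.36), which did not pass the threshold. There were 0.139 reads of Cd79a for each read of Cd79b in young TRM (0.105 to 0.181) and 0.475 in young TCR (0.412 to 0.546).

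The other B cell members were further apart. Ms4a1, which encodes the surface protein CD20, had 0.127 and 0.667 CPM in young TRM, against 6.39 and 8.41 CPM in young TCR, and fell 17.4-fold (10.4 to 31.4). Its young TRM values rest on 2 and 13 reads, which is few reads. Cd22, an inhibitory co-receptor of the B cell receptor, had 0.699 and 0.923 CPM in young TRM, against 5.41 and 6.73 CPM in young TCR, and fell 7.37-fold (5.01 to 11.2). Pax5 had 0.318 and 0.103 CPM in young TRM, from 5 and 2 reads, against 3.84 and 4.5 CPM in young TCR. It fell 21-fold (9.96 to 53). The young TRM columns of all 3 genes lay wholly under those of young TCR, and the wide intervals of Ms4a1 and Pax5 overlap, so no order between them can be read.

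The class II members were lower by a narrower margin. H2-Aa, which encodes the alpha chain of the I-A molecule, had 8.14 and 8.36 CPM in young TRM, against 18.0 and 19.3 CPM in young TCR, and fell 2.26-fold (1.97 to 2.60). H2-Ab1, which encodes its beta chain, had 23.6 and 22.7 CPM in young TRM and 45.8 and 45.4 CPM in young TCR. This is 1.97-fold lower (1.82 to 2.15), and the log2 ratio of -0.95 was just short of the threshold (-1.0 and past it when libraries were scaled by totals only). H2-Eb1, which encodes the beta chain of the I-E molecule, had 6.55 and 5.33 CPM in young TRM, against 12.4 and 14.7 CPM in young TCR. It fell 2.31-fold (1.97 to 2.72), a call that column 1 alone did not give (log2 ratio -0.86). Cd74 had 38.4 and 37.7 CPM in young TRM and 61.6 and 62.3 CPM in young TCR, a 1.63-fold lower level (1.52 to 1.74) that did not pass the threshold. For each of the 4 genes the columns of the libraries were apart.

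Summed, the 4 class II genes had 75.3 CPM in young TRM and 140 CPM in young TCR, a ratio of 0.538 (0.514 to 0.564). Cd79a, Ms4a1, Cd22 and Pax5 summed to 3.24 CPM in young TRM and 25.0 CPM in young TCR, a ratio of 0.129 (0.106 to 0.157). The interval of the second ratio lies wholly below that of the first, so these B cell genes differed between the libraries by more than the class II genes, as far as counting error goes. Cd79b was left out of that sum after its values were seen. With it, the 5 B cell genes had 16.1 CPM in young TRM and 40.5 CPM in young TCR, a ratio of 0.398 (0.361 to 0.438), which is still below that of the class II genes. In such bulk samples, fewer cells of a type and less RNA per cell cannot be told apart.

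**Figure D2:**
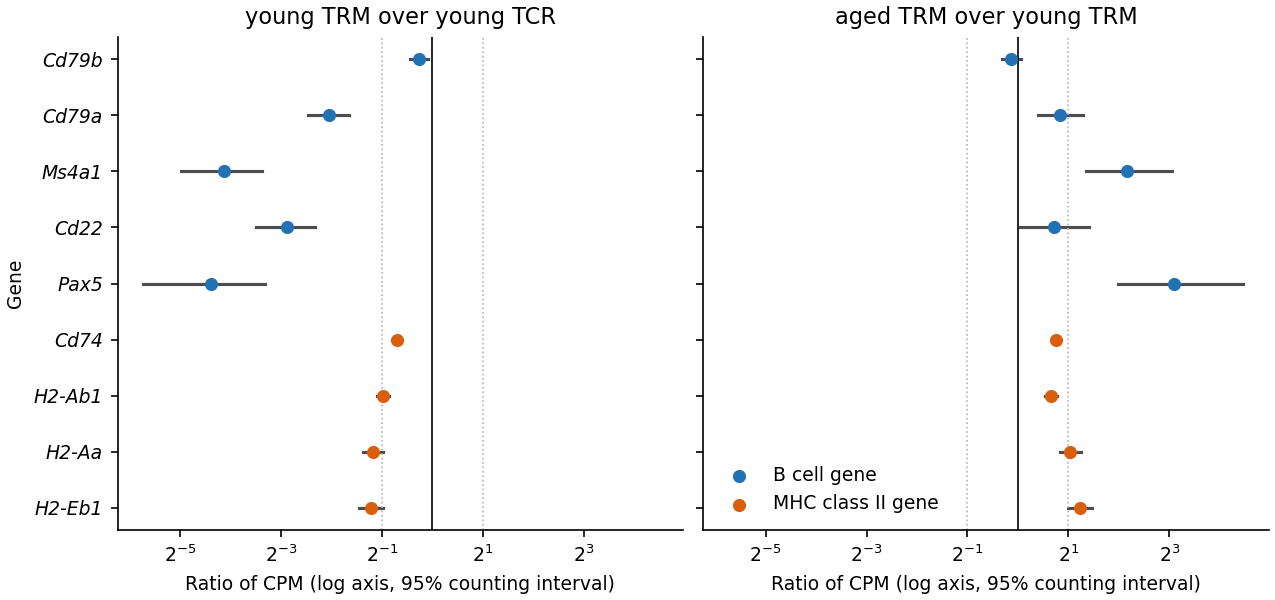
Ratio of CPM (log axis) for each gene, young TRM over young TCR on the left and aged TRM over young TRM on the right, with 95% counting intervals; dotted lines mark 2-fold. B cell genes other than Cd79b lie between 4.11-fold and 21-fold lower on the left, and class II genes between 1.63-fold and 2.31-fold lower.

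The second comparison asked how age bore on the members where the cytokines were present. Of the 9 members 8 were higher in aged TRM, and 3 rose past the threshold: Ms4a1, Pax5 and H2-Eb1. Of 11575 genes tested, 2.25% rose and 1.15% fell, and the members' median log2 ratio was 0.74, against -0.01 over all genes tested. In 7 members the columns of aged TRM lay above those of young TRM without overlap, against 35.9% of all genes tested. This comparison shares the young TRM library with the first, where the members were low, so a higher value here and a lower one there are not separate observations. Ms4a1 and Pax5, like Cd22, reached 1 CPM through the aged library alone.

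Among the B cell genes, Pax5 had 2.07 and 1.32 CPM in aged TRM, against 0.318 and 0.103 CPM in young TRM, and rose 8.54-fold (3.93 to 22). Ms4a1 had 2.32 and 1.47 CPM in aged TRM, against 0.127 and 0.667 CPM in young TRM, and rose 4.45-fold (2.54 to 8.33). Both rest on few reads in young TRM, and the call of Ms4a1 was lost with column 2 alone (log2 ratio 0.57) and in the authors' TPM (0.86). Pax5 was under 1 TPM in every library and was therefore not tested on that scale in either comparison. Cd79a, with 3.20 CPM in aged TRM and 1.79 CPM in young TRM, was 1.79-fold higher (1.31 to 2.46). Cd22 had 1.83 and 0.883 CPM in the columns of aged TRM and 0.699 and 0.923 CPM in those of young TRM. The columns of Cd22 overlapped. Cd79b did not follow, with 11.7 CPM in aged TRM and 12.9 CPM in young TRM, and the interval of its ratio included 1 (0.799 to 1.04).

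The class II genes were all higher in aged TRM. H2-Eb1 had 13.6 and 14.0 CPM in aged TRM, against 6.55 and 5.33 CPM in young TRM, and rose 2.35-fold (2.0 to 2.77). Its log2 ratio was 0.96 with column 1 alone, short of the threshold. H2-Aa had 16.1 and 17.9 CPM in aged TRM and 8.14 and 8.36 CPM in young TRM, 2.06-fold higher (1.79 to 2.37). Its log2 ratio of 0.96 was short of the threshold, and past it in the authors' TPM (1.04) and with column 2 alone (1.01). H2-Ab1 was 1.57-fold higher (1.44 to 1.72) with 36.3 CPM in aged TRM and 23.1 CPM in young TRM, and Cd74 1.69-fold higher (1.58 to 1.81) with 64.3 and 38 CPM. The aged and young columns were apart for all 4. With a pseudocount of 5, no member was past 2-fold in this comparison.

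Aged TRM and young TCR differ in both age and cytokines, and their values are given side by side without calls. The summed class II genes had 131 CPM in aged TRM and 140 CPM in young TCR, a ratio of 0.941 (0.906 to 0.977). Cd79a, Ms4a1, Cd22 and Pax5 together had 8.14 CPM in aged TRM and 25.0 CPM in young TCR, a ratio of 0.326 (0.287 to 0.369), or 0.490 (0.450 to 0.534) with Cd79b. The class II genes of aged TRM were thus near their young TCR level, with single genes between 0.797 and 1.04 of it, while those 4 B cell genes were between 0.223 and 0.435 of theirs. Relative to the reads of those 4 B cell genes, there were 16.1 class II reads in aged TRM (14.4 to 18.1), 23.3 in young TRM (19.3 to 28.3) and 5.59 in young TCR (5.23 to 5.99). With Cd79b among the B cell genes, the ratios were 6.62, 4.68 and 3.45, in the same order of libraries.

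Neither group of reads kept a fixed makeup over the libraries, and the share of Cd79b moved further than that of Cd74. Cd79b held 59.0% of the reads on the 5 B cell genes in aged TRM (55.5 to 62.4), 79.9% in young TRM (76.4 to 83.1) and 38.3% in young TCR (35.9 to 40.7). Leaving it out, Cd79a held 39.3% of the reads on the other 4 in aged TRM (34.0 to 44.8). Its share was 55.3% in young TRM (45.7 to 64.6) and 29.4% in young TCR (26.6 to 32.3). The intervals of the young libraries lay apart, so these 4 did not keep 1 ratio either. Within aged TRM the columns differed: Cd79a had 56 and 74 reads, Ms4a1 47 and 30, Cd22 37 and 18, and Pax5 42 and 27. The place of aged TRM between the young libraries is therefore uncertain. Cd74 held 48.9% of the class II reads in aged TRM (47.6 to 50.3), 50.5% in young TRM (48.6 to 52.4) and 44.3% in young TCR (43.0 to 45.6). The interval of young TCR lay below those of both TRM libraries. For the chains of the I-A pair, there were 0.468 reads of H2-Aa for each read of H2-Ab1 in aged TRM (0.427 to 0.512), 0.357 in young TRM (0.312 to 0.409) and 0.409 in young TCR (0.376 to 0.446). The interval of aged TRM lay above that of young TRM, and that of young TCR overlapped both. By column, aged TRM had 0.413 and 0.531, both outside its own interval, so counting error understates the spread there. Young TRM had 0.345 and 0.368 by column. For H2-Eb1 over H2-Ab1 the values were 0.380 (0.344 to 0.419), 0.254 (0.217 to 0.297) and 0.297 (0.270 to 0.327), in the same order. There the interval of aged TRM lay above those of both young libraries.

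**Figure D3:**
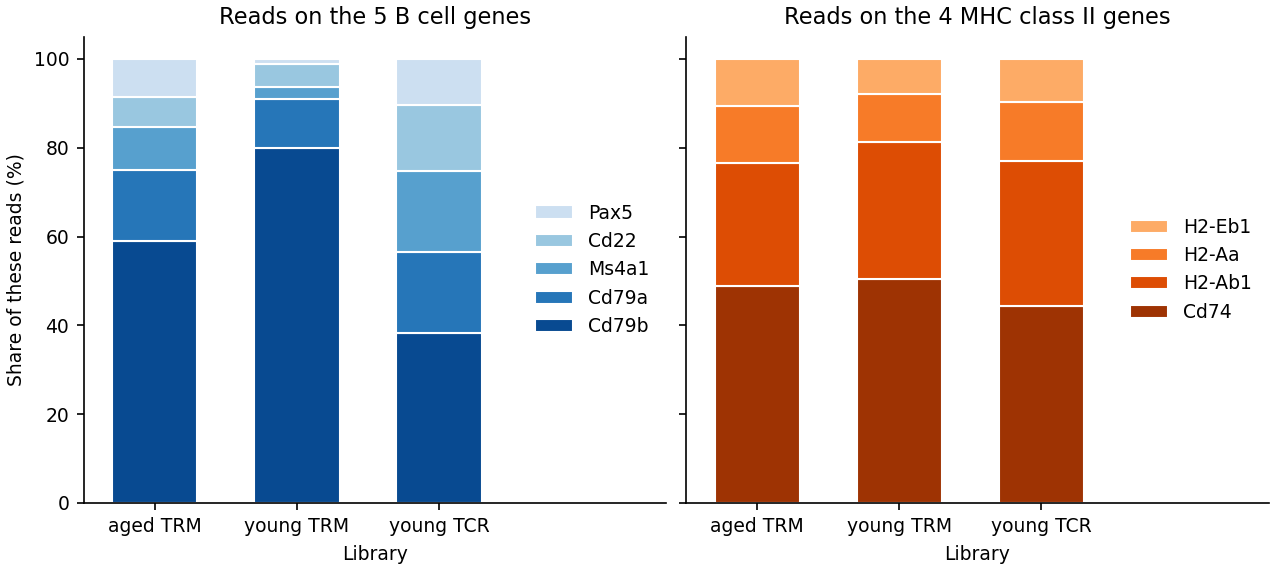
Share in percent of the reads on the 5 B cell genes (left) and on the 4 class II genes (right) that each gene held in aged TRM, young TRM and young TCR. Cd79b takes 79.9% of the B cell reads in young TRM and 38.3% in young TCR, while Cd74 holds between 44.3% and 50.5% of the class II reads.

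H2-Ab1 (chromosome 17, positions 34263227 to 34269418), H2-Aa (34282744 to 34287823) and H2-Eb1 (34305867 to 34316674) are neighbours in the class II region of GRCm38.p6, while Cd74 lies on chromosome 18. Other genes of the region differed from them. H2-DMa and H2-DMb2, which encode chains of the DM peptide exchanger, rose in young TRM: H2-DMa had 185 CPM in young TRM and 62.4 CPM in young TCR (log2 ratio 1.55), and H2-DMb2 had 40.1 and 13.5 CPM (1.5). H2-DMb1, a second beta chain gene of DM, rose to 8.32 CPM in young TRM, against 2.61 CPM in young TCR. There were 2.22 reads on these 3 DM genes for each read on H2-Aa, H2-Ab1 and H2-Eb1 in aged TRM (2.13 to 2.33), 6.26 in young TRM (5.91 to 6.64) and 1.01 in young TCR (0.960 to 1.06). H2-Oa and H2-Ob, which encode the chains of DO, a partner of DM, had 18.2 and 12.6 CPM in young TRM and 20.2 and 18.6 CPM in young TCR, without passing the threshold. H2-DMb1 and H2-DMb2 resemble each other, the annotated spans of H2-DMa and Brd2 overlap, and neither the use of strand nor the treatment of shared reads is given in the sources used here, so the split of reads between them is uncertain.

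**Figure D4:**
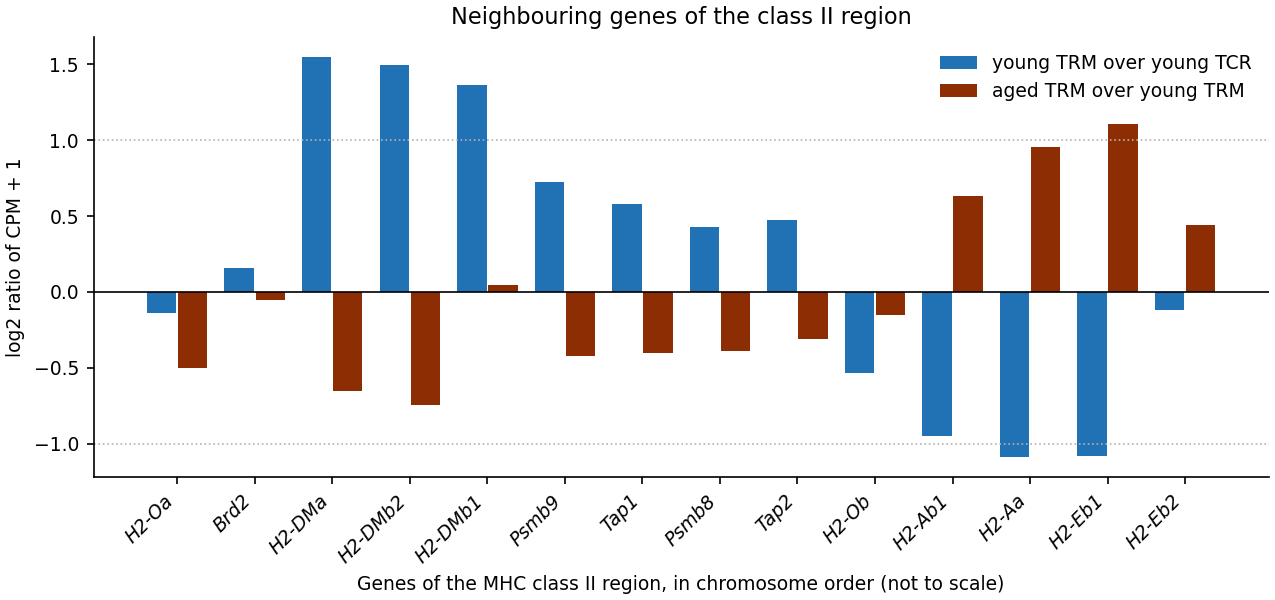
Log2 ratio of CPM with a pseudocount of 1 for the 14 listed genes from H2-Oa to H2-Eb2, in their order along the chromosome, for young TRM over young TCR and for aged TRM over young TRM; dotted lines mark 2-fold. The DM genes stand at or above 1.37 in the first comparison, and H2-Ab1, H2-Aa and H2-Eb1 at or below -0.95.

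Of 18 tested genes of the class II pathway outside the members, 4 rose in young TRM (H2-DMa, H2-DMb1, H2-DMb2 and Ctss, which encodes the protease cathepsin S that trims the invariant chain) and 1 fell, Cd80, which encodes a ligand of CD28. Their median log2 ratio was -0.21. Ciita, the coactivator of class II promoters, had 3.8 CPM in young TRM and 4.49 CPM in young TCR, and the RFX subunit gene Rfx5 had 29.7 and 51.2 CPM (log2 ratio -0.76). In aged TRM, 1 of 18 rose, again Cd80, with 13.5 CPM against 4.26 CPM in young TRM (log2 ratio 1.46), and Ciita had 5.26 and 3.8 CPM (0.38). Of 10 genes of interferon gamma and its signal, 5 rose in young TRM, among them Ifngr2, Irf1, Irf8 and Socs1, with a median of 0.72, while Ifng itself had 82.1 CPM in young TRM and 103 CPM in young TCR. In aged TRM, Ifng rose to 478 CPM, against 82.1 CPM in young TRM, and the other 9 did not pass the threshold. Of the 10, 8 were lower in aged TRM, with a median of -0.47, among them Ifngr2 (47.1 CPM against 90.5 CPM in young TRM, log2 ratio -0.93), Irf1 (-0.85) and Socs1 (-0.75). The part of these genes in the level of class II transcripts was not tested.

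Other B cell genes were read from a list of 24. Of 21 tested, 6 fell in young TRM, among them Pou2af1, Fcer2a, Spib, Fcmr and Blnk, and 1 rose (Fcrl1), with a median log2 ratio of -0.60. The number that fell was 1 with a pseudocount of 5 and with genes of at least 10 CPM, 3 with column 1 alone, 8 with column 2 alone and 7 in the authors' TPM. Over the genes of at least 10 CPM the median was 0.36, on the other side of 0. Pou2af1, which encodes an octamer-factor coactivator of B cells, had 2.58 CPM in young TRM and 40.7 CPM in young TCR (-3.54), the lowest ratio on the list. Fcrl1, an Fc receptor-like gene known from B cells, rose to 13.1 CPM in young TRM, against 0.419 CPM in young TCR. Several more abundant genes were higher without passing the threshold. Cd37 had 118 CPM in young TRM and 77.7 CPM in young TCR, Tnfrsf13b had 49.1 and 40.0 CPM, and Cd38 had 40.3 and 23.2 CPM. The summed level of the 24 was 305 CPM in aged TRM, 291 CPM in young TRM and 272 CPM in young TCR. In young TRM, Cd37, Tnfrsf13b, Cd38 and Ralgps2 had most CPM. All were higher there than in young TCR (Ralgps2 with 33.1 and 25.5 CPM). The sum, led by these abundant genes, was not lower in young TRM, whereas 14 of the 21 tested genes were lower and 7 higher. In aged TRM against young TRM, 12 of 16 tested were higher, with a median of 0.43. Of the plasma cell genes, Mzb1 and Sdc1 fell in young TRM, to 0.170 and 0.454 CPM, against 2.57 and 2.89 CPM in young TCR. In aged TRM, Sdc1 (1.23 CPM against 0.454 CPM in young TRM) and Xbp1 (182 and 167 CPM) were tested and did not pass the threshold. Mzb1 had 0.959 CPM in aged TRM and 0.170 CPM in young TRM, under the 1 CPM needed for testing. Antibody chain genes were not analysed here.

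Markers of other cell types, only some of which carry class II, were set beside the members. Of 6 tested dendritic cell genes 2 fell in young TRM, Itgax and Batf3, and 1 rose in aged TRM, Batf3, with 21.0 CPM against 8.32 CPM in young TRM. The list of 10 summed to 98.6 CPM in aged TRM, 71.5 CPM in young TRM and 94.1 CPM in young TCR, almost all of it from Cst3, Batf3, Zbtb46, Fscn1 and Itgax, while the defining genes Clec9a and Siglech had at most 5 reads in any library. Xcr1, another defining gene, had 80 reads in aged TRM, 56 in young TRM and 50 in young TCR, and Flt3 had 23, 16 and 13. Of 12 macrophage, monocyte and granulocyte genes, 3 in aged TRM, 3 in young TRM and 5 in young TCR had 3 reads or fewer, among them Adgre1, Fcgr1 and C1qa. Their sum was 23.6 CPM in aged TRM, 38.9 CPM in young TRM and 17.8 CPM in young TCR, and Mpeg1, which rose in young TRM (28.7 CPM against 4.22 CPM in young TCR), gave most of it in both TRM libraries. Of 7 NK cell markers, 4 rose in young TRM (Ncr1, Klrb1c, Tyrobp and Fcer1g) and 1 fell (Gzma, a granzyme gene that cytotoxic T cells also express), and the summed level was 531 CPM in aged TRM, 183 CPM in young TRM and 426 CPM in young TCR, of which Gzma alone had 517, 167 and 423 CPM. With a pseudocount of 5, none of the 4 NK cell genes was past the threshold. Gzma was the 1 gene of these 7 that rose in aged TRM against young TRM. Of 4 CD4 T cell genes, Foxp3 rose in young TRM and Zbtb7b fell, and Cd4 had 11.6 CPM in aged TRM, 12.4 CPM in young TRM and 10.5 CPM in young TCR. The part of each of these cell types in the members' levels was not tested.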

How the data were processed

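RNA of 3 samples, 1 in each group, was measured. Per the labels' protocols, RNA was taken with a column kit and sequenced on a HiSeq instrument. Per the submitters' processing notes, Bowtie and the mouse assembly GRCm38 (mm10) were used. The sources used here do not give the counting program. The deposited table holds, per the file headers, a read count for each gene and column, which was taken as an estimated count because some values are not whole. It also holds TPM computed by the authors. Another 24 value columns were not used. Counts were rounded and the 2 columns of a sample summed, giving between 36021887 and 40385477 reads per library. Reads are not independent molecules, so intervals cover counting error only.

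Libraries were scaled with TMM factors (1.01 for aged TRM, 0.978 for young TRM and 1.02 for young TCR) from edgeR 4.0.16 in R 4.3.3. Ratios and Clopper-Pearson intervals came from scipy 1.17.1, numpy 2.4.6 and pandas 2.3.3 under Python 3.11.15. Testing a gene required 1 CPM in either library of a comparison. The rule was tested on data simulated for young TRM against young TCR with counting error alone, over 11340 genes. Of 50 genes raised 3-fold it called 49, and of 50 lowered 3-fold it called 44. It called 0 of 50 raised 1.5-fold, 0 of 50 lowered 1.5-fold and 0 of 11140 unchanged genes. Alternatives were totals-only scaling, DESeq2 1.42.0 size factors, a pseudocount of 5, no filter, a filter of 10 CPM, TPM, and either column alone.

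The members, the 13 lists and the naming rule were chosen with earlier results of these data known. Named were the members, up to 5 genes of each list with most CPM, those called, and the 5 genes nearest in pattern to each member group. Some genes that this rule takes are left out. Others, such as Clec9a, Siglech, Xcr1, Flt3, Adgre1, Fcgr1, C1qa, Ciita, H2-Oa, H2-Ob, Brd2 and Hbb-bs, were named after their values were seen. Of 140 list entries, 124 were listed in the table, where 23 symbols that read as dates were looked up again by gene ID. Class II genes vary much between mouse strains, and how reads of another strain would align was not examined. Results of some listed genes are not reported here.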

Additional observations from a re-analysis of the deposited data

How the results depend on the processing

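With a pseudocount of 5, 1 member was called lower in young TRM against young TCR (6 in the report) and 0 higher in aged TRM against young TRM (3 in the report). The counts over all genes were then 296 higher and 190 lower in the first comparison and 87 and 62 in the second. With genes of at least 10 CPM, fewer genes were tested. Cd79a, Ms4a1, Cd22 and Pax5 dropped out, and 10 of the 18 member ratios remained. Of the members still tested, 2 were called lower in the first comparison (H2-Aa and H2-Eb1) and 1 higher in the second (H2-Eb1). Over all genes 234 were then lower in the first comparison and 123 higher in the second. The ratio of class II to B cell reads was 7.59 in aged TRM and 4.60 in young TCR in the authors' TPM, and in young TCR 3.8 with column 1 alone and 3.17 with column 2 alone. Without Cd79b, an alternative chosen after seeing the data, it was 16.1 in aged TRM, 23.3 in young TRM and 5.59 in young TCR. This puts young TRM above aged TRM, the other way round from the sum with Cd79b. Cd79b in aged TRM against young TRM had a log2 ratio of 0.026 with column 1 alone, against -0.12 in the report. The cause was not tested. With DESeq2 size factors and with no filter, all 18 member ratios kept their direction and their side of the threshold. With the pseudocount of 5, 8 of the calls (6 lower and 3 higher in the report) were lost. Scaling by totals, either column alone and the authors' TPM each changed the direction or the call of at least 1 member. Of 622 recomputed counts and medians of gene lists, 102 moved. No paired analysis was possible because the labels number no replicates. Depth limits Ms4a1 and Pax5 most, with 15 and 7 reads in young TRM.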

Other observations

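Genes of blood cells without a nucleus were also found at low levels. The platelet genes Ppbp and Pf4, which encode platelet chemokines, fell in young TRM, to 0.482 and 0.653 CPM, against 6.22 and 2.79 CPM in young TCR, and had 1.21 and 1.57 CPM in aged TRM. The haemoglobin gene Hbb-bt went another way, with 6.15 CPM in aged TRM, 2.50 CPM in young TRM and 0.740 CPM in young TCR. It rose in both comparisons, just past the threshold (log2 ratio 1.01 for young TRM over young TCR and 1.03 for aged TRM over young TRM). Between single columns the log2 ratios ran from 0.79 to 1.24 and from 0.54 to 1.46, so neither call held in every pairing. Hbb-bs had 48 reads in aged TRM, 8 in young TRM and 0 in young TCR. Among stromal and endothelial genes none of 3 tested passed the threshold in young TRM against young TCR, nor any of 2 tested in aged TRM against young TRM, and Pecam1 made up most of the sum.

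The genes whose 2 log2 ratios over these 3 libraries lay nearest to those of the summed B cell members, out of 11768 genes, were Tmod1, Med12l, Ndufa4, Cbfa2t3 and S100a10, at distances of 0.03 to 0.06. None is on the B cell lists. The sum used includes Cd79b, which held 79.9% of its reads in young TRM. Its log2 ratios were -1.28 for young TRM over young TCR and 0.29 for aged TRM over young TRM. Without Cd79b they were -2.62 and 1.11, so which genes lie nearest depends on that choice. Those nearest to the summed class II members were Pex11a, Bcl2a1d, Morn4, Zfp296 and Stard10, at distances of 0.02 to 0.06. Bcl2a1d, a survival gene of the BCL2 family, had 58.1 CPM in aged TRM, 34.0 CPM in young TRM and 64.1 CPM in young TCR. With 3 libraries many genes share such a pattern, and nothing about shared function follows from it.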
